A study of Homo sapiens with 12 samples.

Results

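The genes described here encode the contact and secreted guidance proteins of the ephrin and semaphorin systems: ephrins, Eph receptors, semaphorins of classes 3 to 7, plexins and neuropilins. The families were chosen with earlier results of these data known, and their members were taken by symbol alone. Every EPHA and EPHB receptor, every EFNA and EFNB ligand, SEMA3 to SEMA7 genes, plexins and NRP1 and NRP2 entered. This gave 53 of the 23613 gene symbols kept from the files. These were 5 A-type and 3 B-type ephrins, 9 EphA and 5 EphB receptors, 7 class 3, 6 class 4, 2 class 5 and 4 class 6 semaphorins, SEMA7A, 9 plexins and 2 neuropilins. Poly(A) RNA was sequenced from H9 and RUES2, established lines of human embryonic stem cells, each cultured as primed and as naive pluripotent cells, with 3 libraries in each of 4 groups. Primed cells grew on mitotically inactivated mouse fibroblasts with 4 ng/mL bFGF, with H9 at passages 31 to 35 and RUES2 at 30 to 33. Naive cells grew with 20 ng/mL LIF, the GSK3 inhibitor CHIR99021 at 3 µM, the MEK inhibitor PD0325901 at 1 µM, 18 µg/mL insulin and 5 mM glucose, with H9 at passages 27 to 31 and RUES2 at 24 to 26. The labels name no mTOR inhibitor for any library and do not say whether naive cells had feeders. Colonies were picked by hand, only these 2 lines represent each state, and nothing in the labels says how the 3 cultures of a group were separated, so the p-values reflect differences among these libraries, which may be technical.

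Ephrins are ligands that stay on the cell surface, A-type ephrins by a lipid anchor and B-type ephrins by a transmembrane domain, and they signal when a neighbouring cell carries an Eph receptor tyrosine kinase. EphA receptors mostly bind A-type and EphB receptors mostly B-type ephrins, and the pairs are known for repulsion, boundary formation and cell sorting in embryos. Semaphorins signal through plexins, which act on small GTPases, and the secreted class 3 semaphorins mostly need a neuropilin as the binding subunit. Outside the nervous system these proteins act in vessels, epithelia and gastrulating embryos.

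Before the results, 1 limit on the labels applies. By genes whose level depends on genotype, 3 of the 12 libraries stood apart from the others that carry their line label, and 0 of these 3 were labelled H9. The group means of the state comparison in H9 do not contain them, although its estimate of spread uses all 12 libraries. This comparison was therefore repeated without the naive libraries labelled RUES2. The state comparison of the libraries labelled RUES2 cannot be had without them, so its directions hold for the labels only. The unit is FPKM, which divides the fragments of a gene by its transcript length and by the mapped fragments of the library, and the tables hold no read counts. Between 12681 and 13592 genes per library reached 1 FPKM, among them 39 to 44 of the 53 guidance genes. Tests were run on the 14428 genes that reached 1 FPKM in 3 or more libraries, 46 of the 53 among them. EPHA5, EPHA6, PLXNA4, PLXNB3, PLXNC1, SEMA3D and SEMA3G fell under this filter. Tested without it, SEMA3D (-0.35 in H9 and -0.33 in the libraries labelled RUES2) and PLXNA4 (-0.11 and -0.19) were lower in both naive groups on the log2 scale, both from levels of at most 1.12 FPKM. Differences between groups are differences of mean log2(FPKM + 1), given with the standard error (SE), and this scale shrinks the change of genes with few FPKM. A gene was called at a limma p adjusted over all tested genes of under 0.05.

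In H9, 10 of the 46 tested genes (21.7%) were higher in the naive state, beside 20.4% of all tested genes, and 20 (43.5%) were lower, beside 23.9%. In the libraries labelled RUES2, 11 genes (23.9%) were higher, beside 23.1% of all genes, and 16 (34.8%) were lower, beside 23.6%. The share of higher calls was thus near the background in both, and the share of lower calls was above it, without a test of that difference. The median difference of the 46 genes was -0.17 in H9 and -0.03 in the libraries labelled RUES2, beside -0.01 and 0.01 over all tested genes. Their median absolute difference was 0.69 and 0.72, beside 0.31 and 0.33. Without the naive libraries labelled RUES2, the H9 comparison called 9 genes higher and 19 lower.

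The 2 state comparisons take the difference between separate libraries, but 1 model over all libraries gave both the same estimate of spread. Their p-values are thus not independent of each other. Higher in both, with no overlap between the states in either, were 6 genes: the ligands EFNB1, EFNB2 and SEMA3C and the receptors EPHA2, EPHA7 and PLXNA2 (13.0% of the 46, beside 12.9% of all tested genes). Lower in both, with no overlap, were 13 genes: the receptors EPHA1, EPHB2, EPHB4, EPHB6 and PLXNB1, the ephrins EFNA2 and EFNA3, and the semaphorins SEMA3F, SEMA4A, SEMA4B, SEMA4D, SEMA5B and SEMA6B (28.3%, beside 16.2%). NRP2 and SEMA3A were lower in naive H9 and higher in the naive libraries labelled RUES2. Of the other 25 tested genes, 9 were called only in the H9 comparison, 6 only in that of the libraries labelled RUES2 and 10 in neither, which does not show that the lines differ there. Of the H9 calls 24 of 30 held in every alternative in which the gene was tested, and of the calls in the libraries labelled RUES2 22 of 27. Those of EFNA3, EPHA2 and PLXNA2 in the latter were among the calls that did not. Other genes, such as EPHB3 and SEMA6A, gained a call without 1 library, which could be a library of the other line label. The call of EPHA3 in the libraries labelled RUES2 was not tested without any 1 of the naive libraries of that label. With 1 library left out, the count of genes higher in both was 4 to 8 and that of genes lower in both 12 or 13.

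**Figure D1:**
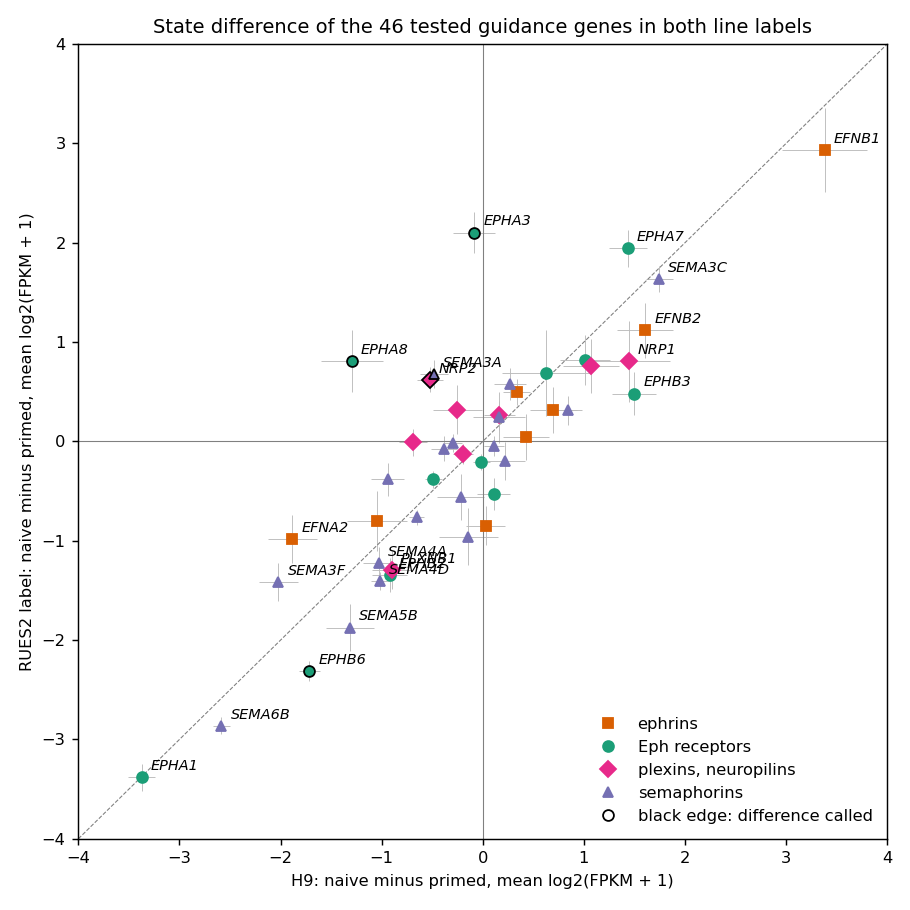
State difference of each of the 46 tested genes in H9 (x axis) and in the libraries labelled RUES2 (y axis), as naive minus primed mean log2(FPKM + 1), with grey bars of 1 SE and a dashed line of equality. EFNB1 lies at the upper right (3.38 and 2.94), EPHA1 at the lower left (-3.37 and -3.38), and EPHA3 on the vertical axis (-0.09 and 2.10); a black edge marks the 5 genes whose difference between line labels was called.

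Among the ligands, EFNB1 and EFNB2 rose in both comparisons, EFNB3 in neither, and the A-type ephrins did not move in 1 direction. EFNB1 (chromosome X, 68048840 to 68062006 of hg19), a transmembrane ligand of EphB receptors, measured 5.96, 13.6 and 2.52 FPKM in the 3 primed H9 libraries and 76.3, 72.5 and 70.0 in naive H9. It measured 5.04, 7.6 and 4.27 in primed libraries labelled RUES2 and 42, 40.2 and 68.2 in naive ones. The states did not overlap in either line label, although primed H9 libraries spread widely. EFNB1 was 9.93 times as high in naive as in primed H9 by group means (log2 difference 3.38 ± 0.42, adjusted p = 0.000149) and 8.89 times as high in the libraries labelled RUES2 (2.94 ± 0.42, adjusted p = 0.000327). EFNB2 (chromosome 13, 107142079 to 107187388), the ligand of EPHB4, measured 7.84, 7.57 and 6.99 FPKM in primed and 26.4, 16.4 and 35 in naive H9. The libraries labelled RUES2 gave 4.43, 9.02 and 5.22 and 13.3, 12.1 and 17.6. Every naive library was above every primed library (log2 difference 1.61 ± 0.28 in H9 and 1.12 ± 0.28 in the libraries labelled RUES2, adjusted p = 0.0011 and 0.00761). EFNB3, the third B-type ephrin, measured 4.58 to 6.46 in primed and 5.1 to 5.71 FPKM in naive H9 and was not called there (0.918), while it fell from 6.46 ± 0.86 to 3.25 ± 1.3 (SD, n = 3) in the libraries labelled RUES2 (log2 difference -0.85, adjusted p = 0.00489).

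The FPKM of the B-type ephrins, summed over the 3 genes of a library, went from between 14.1 and 27.6 in primed to between 94 and 111 in naive H9, and from between 15.2 and 24 to between 54.5 and 90.5 in the libraries labelled RUES2. RNA was taken from whole colonies, so a change in the number of cells that express a gene cannot be told apart from a change in RNA per cell. The summed FPKM of 5 markers of pluripotent cells was 1379 to 1577 in primed and 920 to 959 in naive H9, with 0 called higher and 2 lower. In the libraries labelled RUES2 it was 1331 to 1513 and 1052 to 1358 and overlapped, with 4 called lower and 1, NANOG, higher. Marker genes of several other cells moved with the state. The summed FPKM of 8 fibroblast markers was 34.4 to 64.7 in primed and 315 to 486 in naive H9, and 23.6 to 54.3 and 189 to 1048 in the libraries labelled RUES2, with 6 and 5 of the 7 tested markers called higher. For 6 mesendoderm markers the sums were 9.28 to 36.4 and 83.2 to 94.3 in H9 and 10.3 to 27.4 and 86.9 to 144 in the libraries labelled RUES2, with 4 of 6 called higher in each. The mesendoderm marker TBX6 went the other way in the latter, from 1.2 ± 0.107 to 0.205 ± 0.0966 FPKM (SD, n = 3, log2 difference -0.87, limma adjusted p = 0.00136). For 5 neural crest markers, the sums fell from between 53.5 and 95.3 to between 23.6 and 28 and from between 66.1 and 84.7 to between 14.7 and 18, with all 4 tested markers called lower in each. Sums of 7 endothelial markers were low, at 2.64 to 7.48 and 1.7 to 2.84 FPKM in H9 and 1.6 to 4.18 and 4.11 to 6.31 in the libraries labelled RUES2, and EMCN was under 0.1 everywhere. Of the 2 tested, PECAM1 and TEK, only PECAM1 was called in a state comparison, and it rose in the libraries labelled RUES2 (log2 difference 1.68, limma adjusted p = 0.00154). PECAM1 passed the filter only through the naive libraries of that label. For 5 definitive endoderm markers the sums overlapped between states, at 20.5 to 183 and 50.7 to 74.5 in H9 and 152 to 242 and 106 to 231 in the libraries labelled RUES2, with 1 marker called higher and 1 lower in H9 and 2 higher and 0 lower in the other comparison. Replicate 3 had the highest fibroblast marker sum in naive H9 and in the naive libraries labelled RUES2, and EFNB2 was also highest there in both. EFNB1 was highest in that library among naive libraries labelled RUES2 and lowest in it among naive H9. The part of these cells in the result was not tested.

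Upstream sequence of the B-type ephrin genes that rose and of 2 Eph receptor genes that fell is shown because these genes moved in both line labels. Each is the stretch from 250 to 51 bases before a RefSeq transcript start (GRCh38.p14, a build other than the files' hg19), read 5′ to 3′ on the strand of the gene, with no base in an annotated exon of that gene. Capitals mark the GC box letters GGGCGG or, on the other strand, CCGCCC.
EFNB1 (chrX:68828771-68828970, plus strand): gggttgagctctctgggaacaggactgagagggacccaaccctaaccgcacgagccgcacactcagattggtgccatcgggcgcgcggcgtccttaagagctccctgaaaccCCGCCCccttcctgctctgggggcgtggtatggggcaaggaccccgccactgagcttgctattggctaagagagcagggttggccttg
EFNB2 (chr13:106535713-106535912, minus strand): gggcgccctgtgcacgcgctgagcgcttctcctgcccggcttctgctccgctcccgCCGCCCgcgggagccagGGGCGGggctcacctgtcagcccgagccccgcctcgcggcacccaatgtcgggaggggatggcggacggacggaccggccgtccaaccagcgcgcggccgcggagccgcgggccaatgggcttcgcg
EPHA1 (chr7:143408907-143409106, minus strand): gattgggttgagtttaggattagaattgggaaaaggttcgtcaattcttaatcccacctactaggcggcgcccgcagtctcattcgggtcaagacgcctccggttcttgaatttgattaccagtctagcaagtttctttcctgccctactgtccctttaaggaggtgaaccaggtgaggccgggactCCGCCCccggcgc
EPHB4 (chr7:100827574-100827773, minus strand): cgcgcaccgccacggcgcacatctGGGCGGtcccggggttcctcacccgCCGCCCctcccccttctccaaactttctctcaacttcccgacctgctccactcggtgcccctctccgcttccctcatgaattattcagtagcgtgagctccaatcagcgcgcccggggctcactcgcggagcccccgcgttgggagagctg
The stretch of EFNB1 held 1 GC box and 11 CpG pairs, and that of EFNB2 2 and 30. That of EPHA1 held 1 and 11, and that of EPHB4 2 and 20. A GC box was present in 35% of all 35116 RefSeq stretches of this length and place, whose median was 8 CpG pairs. None of the 4 held CTTTGAT or ATCAAAG, the core letters bound by TCF/LEF factors, which were present in 1.89% of all stretches. Among the 4 genes shown, those that rose and those that fell thus both held GC boxes in this window. Other genes differed: EFNA3, which fell in both comparisons, held 0, and the 2 windows of SEMA3C, which rose, held 0 and 3.

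The A-type ephrins, ligands of EphA receptors, split. EFNA2 (chromosome 19, 1286153 to 1301429) measured 3.31, 4.09 and 3.15 FPKM in primed H9 and 0.279, 0.165 and 0.213 in naive H9, and 2.68, 6.16 and 2.4 and 1.34, 0.952 and 1.52 in the libraries labelled RUES2. It was lower in every naive library than in any primed one (log2 difference -1.89 ± 0.24 and -0.99 ± 0.24, adjusted p = 0.000176 and 0.00713). In naive H9 the confidence bounds of the files, read as counting error, correspond to only 6.00 to 14 fragments per library. EFNA3, its paralog on chromosome 1, fell from 4.07, 4.35 and 8.19 to 2.37, 1.75 and 2.06 FPKM in H9 and from 7.06, 13.5 and 5.75 to 3.55, 5.66 and 3.92 in the libraries labelled RUES2. The groups did not overlap, but the primed libraries spread widely and the calls were narrow (-1.05 and -0.80, adjusted p = 0.0167 and 0.0485). The H9 call ended without primed H9 replicate 3 (0.061) or naive H9 replicate 2 (0.0545). The other call ended in 9 of 12 omissions, with adjusted p between 0.0509 and 0.167, the highest without primed RUES2 replicate 2. It also ended without a filter (0.0678) or with a filter of 5 FPKM (0.0518).

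EFNA4, the A-type ephrin of highest mean level, measured 10.8, 14.9 and 10.4 FPKM in primed and 20.1, 19.6 and 20.1 in naive H9. The groups did not overlap, and the difference was called (0.70 ± 0.24, adjusted p = 0.0344), but the call ended without any one of the H9 libraries except primed replicate 2 (0.0736 to 0.102) and without the naive libraries labelled RUES2 (0.0591). Libraries with the RUES2 label gave 11.4, 24.3 and 12.2 and 19.4, 20.3 and 17.3 and overlapped between states, since primed replicate 2 was the highest of all 12 libraries. Without that library it was called higher there too (0.00468). EFNA5, known from retinal axon mapping, rose from 3.41 ± 0.655 to 5.16 ± 0.314 FPKM (SD, n = 3) in the libraries labelled RUES2 (0.49, adjusted p = 0.011) and measured 2.2 to 2.79 and 2.78 to 3.91 in H9, where it was not called (0.0614). Without primed H9 replicate 1, naive H9 replicate 3 or primed RUES2 replicate 2 it was called higher there too (0.0351 to 0.0451). EFNA1 was called in neither state comparison, although without primed H9 replicate 3 it was called higher in naive H9 (0.0204). The summed FPKM of the 5 A-type ephrins was 21.8 to 27.1 in primed and 27.4 to 29 in naive H9, and 26.9 to 52.7 and 32.7 to 37.2 in the libraries labelled RUES2, where the states overlapped.

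**Figure D2:**
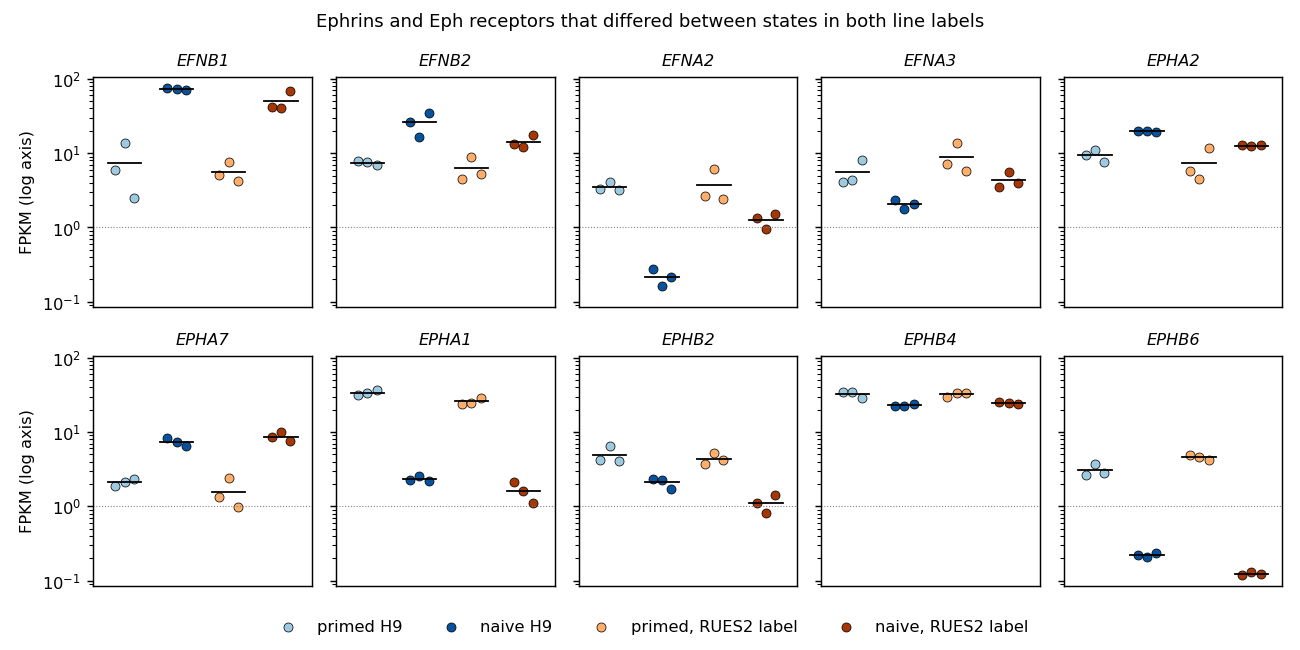
FPKM on a log axis of the 4 ephrin and 6 Eph receptor genes called in the same direction in both state comparisons, with 3 libraries per group as points, group means as black lines and a dotted line at 1 FPKM. EFNB1 rises from group means of 7.35 and 5.64 to 72.9 and 50.1 FPKM, and EPHA1 and EPHB6 fall in both line labels.

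Among the EphA receptors, EPHA1 fell most and EPHA2 and EPHA7 rose. EPHA1 (chromosome 7, 143088205 to 143105985), an EphA kinase of epithelia, measured 31.3, 33 and 36.8 FPKM in primed H9 and 2.27, 2.56 and 2.2 in naive H9. Its values under the RUES2 label were 24, 24.8 and 28.9 and 2.11, 1.59 and 1.11. No naive library came near a primed one, and the group mean was 14.4 and 16.2 times as high in the primed as in the naive state (log2 difference -3.37 ± 0.13 and -3.38 ± 0.13, adjusted p = 2.17e-07 and 1.93e-07). The interval of the difference between the line labels was -0.43 to 0.41. Its interval in the files overlaps EPHA1-AS1, at 0.215 to 0.612 FPKM, and touches ZYX, at 33.1 to 63.9 FPKM, and without known strandedness the reads of overlapping genes cannot be told apart.

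EPHA2 (chromosome 1, 16450832 to 16482582), a receptor of epithelia and of early embryos, measured 9.58, 11 and 7.56 FPKM in primed and 20.2, 20.0 and 19.1 in naive H9, and 5.69, 4.5 and 11.6 and 12.7, 12.3 and 12.9 in the libraries labelled RUES2. It rose in H9 (1.01 ± 0.25, adjusted p = 0.00775) and by a narrower margin in the libraries labelled RUES2 (0.82 ± 0.25, 0.0202). The second call ended without primed RUES2 replicate 1 (0.0721) or 2 (0.0703) or naive RUES2 replicate 1 (0.0516) or 3 (0.0511). EPHA7 (chromosome 6, 93949740 to 94129300), known from the neural tube and cortex, measured 1.88, 2.13 and 2.33 FPKM in primed and 8.33, 7.39 and 6.58 in naive H9, and 1.33, 2.43 and 0.968 and 8.46, 9.93 and 7.65 in the libraries labelled RUES2. All naive libraries were above all primed ones (log2 difference 1.44 ± 0.18 and 1.94 ± 0.18, adjusted p = 0.000175 and 2.43e-05). The summed FPKM of 7 neural ectoderm markers moved the same way, from between 138 and 161 to between 259.7 and 277 in H9 and from between 97.9 and 170.4 to between 275 and 335 in the libraries labelled RUES2. Only NES and TUBB3 of these markers were tested. TUBB3 was called higher in both comparisons (1.02 and 1.74), and NES in H9 (0.59, adjusted p = 0.0275, 0.05 or more in 4 of 12 omissions of a library) but not in the libraries labelled RUES2 (-0.05, 0.857). The part of these markers in the result was not tested. EPHA4 measured 2.35 to 10.7 in primed and 7.49 to 9.49 FPKM in naive H9 and was called in neither comparison, although it was called higher in naive H9 without primed H9 replicate 2 (0.0466). EPHA10, which lacks kinase activity, was called in neither (-0.02 and -0.21), and was called lower in the libraries labelled RUES2 after a rescaling of the libraries by their median ratio (0.0394).

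Of the 5 EphB receptors, 3 fell in both comparisons. EPHB4 (chromosome 7, 100400187 to 100425143), the receptor of EFNB2 in veins, was the EphB gene of highest level and measured 34.6, 34.7 and 28.6 FPKM in primed and 22.1, 22.7 and 23.7 in naive H9. Under the RUES2 label it measured 29.9, 33.6 and 33.7 and 25.6, 24.3 and 24. The change was small but beyond the spread, with no overlap (log2 difference -0.49 ± 0.08 and -0.38 ± 0.08, adjusted p = 0.00105 and 0.00402). EPHB2 (chromosome 1, 23037331 to 23241823), a receptor of intestinal crypts and of commissural axons, fell from 4.24, 6.43 and 4.13 to 2.33, 2.27 and 1.71 FPKM in H9 and from 3.68, 5.2 and 4.16 to 1.09, 0.802 and 1.42 in the libraries labelled RUES2 (-0.92 and -1.35, adjusted p = 0.00192 and 0.000173). EPHB6 (chromosome 7, 142552792 to 142568847), whose kinase domain is inactive, fell from 2.63, 3.68 and 2.83 to 0.223, 0.208 and 0.238 FPKM in H9. It fell in the libraries labelled RUES2 from 4.94, 4.65 and 4.16 to 0.118, 0.13 and 0.122. It was thus under 0.3 FPKM in all 6 naive libraries and above 2 in all 6 primed ones (log2 difference -1.72 ± 0.10 and -2.31 ± 0.10, adjusted p = 1.82e-06 and 3.45e-07).

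EPHB3, which shares crypt expression and ligands with EPHB2, moved the other way in H9. It measured 0.334, 1.39 and 0.373 FPKM in primed and 3.96, 3.35 and 3.57 in naive H9 (1.50 ± 0.22, adjusted p = 0.000378). Libraries with the RUES2 label gave 1.76, 1.72 and 1.59 and 2.89, 1.99 and 3.54, and the gene was not called there (0.48 ± 0.22, 0.0935), and the difference between the line labels was not called either (0.0851). Without primed H9 replicate 2, its highest primed H9 library, EPHB3 was called higher in the libraries labelled RUES2 (0.018) and the difference between the labels was called as well (0.0108). It was also called higher there without naive RUES2 replicate 2 (0.0469). EPHB1 fell in the libraries labelled RUES2 (-0.53, 0.0202), by a call that ended without primed replicate 1 (0.058) or 2 (0.0507) or naive replicate 2 (0.0712). In H9 it overlapped between states (0.789 to 1.76 and 0.983 to 1.48 FPKM). Summed over the 5 EphB genes, FPKM went from between 36.9 and 48 to between 30.0 and 30.2 in H9 and from between 41.9 and 46.8 to between 27.9 and 30.5 in the libraries labelled RUES2. B-type ligand and EphB receptor transcripts thus moved in opposite directions by their sums in both line labels, with the ligand sum below the receptor sum in every primed library and above it in every naive one.

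The class 3 semaphorins, which are secreted, held a gene that rose and a gene that fell in both comparisons. SEMA3C (chromosome 7, 80371854 to 80548667), a ligand of neuropilins and plexin D1 in the cardiac outflow tract, measured 0.724, 0.647 and 0.502 FPKM in primed and 4.37, 4.29 and 4.65 in naive H9. Its values under the RUES2 label were 0.362, 0.287 and 0.505 and 2.59, 3.2 and 4.24. Every naive library was above every primed one and the group mean was 7.11 and 8.69 times as high in the naive state (log2 difference 1.74 ± 0.13 and 1.63 ± 0.13, adjusted p = 6.49e-06 and 9.41e-06). SEMA3F (chromosome 3, 50192848 to 50226508), a repellent that acts through NRP2, fell from 8.97, 6.52 and 11.1 to 1.33, 1.53 and 1.29 FPKM in H9. It fell from 12.5, 13.2 and 9.25 to 3.37, 4.77 and 3.07 in the libraries labelled RUES2. The states did not overlap (-2.02 ± 0.19 and -1.42 ± 0.19, adjusted p = 2.48e-05 and 0.000223). SEMA3B was called in neither comparison. SEMA3E, a ligand of plexin D1, measured 0.868 to 1.11 and 1.22 to 1.61 FPKM in primed and naive H9 without a call and rose in the libraries labelled RUES2 from between 1.37 and 1.64 to between 2.07 and 3.95 (0.58, adjusted p = 0.0125).

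The neuropilins, the binding subunits for class 3 semaphorins and for VEGF, differed from each other. NRP1 measured 1.35, 1.15 and 1.48 FPKM in primed and 5.73, 2.24 and 10.7 in naive H9, with replicate 3 far above the others, and was called higher (1.45 ± 0.41, adjusted p = 0.0157). The call ended without that library (0.0531), which also had the highest fibroblast marker sum of the naive H9 libraries, and the part of that sum in the result was not tested. In the libraries labelled RUES2 NRP1 overlapped between the states (2.58, 1.22 and 1.86 and 4.61, 2.3 and 5.56, adjusted p = 0.131), and again naive replicate 3 was highest, although without naive H9 replicate 2 it was called higher there (0.0475). NRP2 is described with the genes that differed between the line labels.

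Among the plexins, PLXNB1 fell and PLXNA2 rose. PLXNB1 (chromosome 3, 48445261 to 48471460), the receptor of SEMA4D, measured 20.2, 23.7 and 12.9 FPKM in primed and 9.77, 9.22 and 9.13 in naive H9, and 18, 23.7 and 17 and 6.66, 7.07 and 8.2 in the libraries labelled RUES2. The lowest primed library was above the highest naive one in each (-0.90 ± 0.19 and -1.30 ± 0.19, adjusted p = 0.00365 and 0.000383). PLXNA2 (chromosome 1, 208195588 to 208417665), a receptor of class 6 semaphorins, measured 0.464, 1.05 and 0.249 FPKM in primed and 2.34, 1.34 and 3.43 in naive H9, and 0.6, 0.538 and 1.13 and 2.67, 1.24 and 2.06 in the libraries labelled RUES2. Both were called (1.07 ± 0.27 and 0.76 ± 0.27, adjusted p = 0.00957 and 0.0428), but the second call ended in 6 of 12 omissions of a library (0.0542 to 0.146), the highest without naive RUES2 replicate 1, with a pseudocount of 0.1 FPKM (0.0507) and without a filter (0.0573). PLXNB2, a receptor of SEMA4C, fell in H9 from between 14.2 and 16.8 to between 8.69 and 10.2 FPKM (-0.69, adjusted p = 0.00218) and was not called in the libraries labelled RUES2 (-0.01, 0.957), while the difference between the labels was not called (0.0651). Without naive RUES2 replicate 1 that difference was called (0.0313). PLXNA1, the plexin of highest mean level, measured 14.5, 17.5 and 14.2 FPKM in primed and 13.2, 11.8 and 14.9 in naive H9, and 13.5, 13.7 and 14.8 and 12.1, 12.8 and 13.4 in the libraries labelled RUES2. It was called in neither, with intervals of -0.42 to 0.02 and -0.34 to 0.10 for the log2 difference, although the median-ratio rescaling called it lower in naive H9 (0.0444). PLXNA3 and PLXND1 were also called in neither.

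The class 4 semaphorins, transmembrane ligands known best from the immune system, held 5 lower and 0 higher calls among 6 genes in H9, and 3 lower and 0 higher calls in the libraries labelled RUES2, beside 23.9% and 23.6% lower calls over all tested genes. Of the 5 calls in H9, 2 each ended without most single H9 libraries. SEMA4D (chromosome 9, 91975706 to 92094611), the ligand of PLXNB1, fell from 11.8, 10.7 and 11.9 to 5.39, 4.94 and 5.13 FPKM in H9. Under the RUES2 label it fell from 12.6, 12.5 and 11.5 to 4.19, 3.36 and 4.45. The spread within groups was small beside the change (-1.02 ± 0.09 and -1.41 ± 0.09, adjusted p = 1.96e-05 and 2.68e-06). SEMA4B fell from 12.7, 12.5 and 12.8 to 7.31, 7.29 and 8.54 FPKM in H9 and from 14.4, 14 and 14.4 to 8.6, 7.63 and 7.76 in the libraries labelled RUES2 (-0.65 and -0.77, 8.36e-05 and 2.99e-05). SEMA4A, known from T cells and the retina, fell from 4.32, 4.75 and 6.75 to 2.1, 2.06 and 1.98 and from 4.82, 6.84 and 5.38 to 1.8, 1.5 and 2.25 (-1.02 and -1.23, 0.000605 and 0.000178). None of these 3 genes overlapped between the states in either line label.

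The other class 4 calls were narrow. SEMA4F was called in H9 (-0.30, adjusted p = 0.0273), and the call ended without primed H9 replicate 2 or any one naive H9 library (0.0651 to 0.0843). SEMA4G was called there as well (-0.38, 0.0326), and that call ended without any one H9 library except primed replicate 1 (0.0729 to 0.104) and without the naive libraries labelled RUES2 (0.0509). The interval of SEMA4G overlaps MRPL43, a mitochondrial ribosomal protein gene at 40.9 to 54.4 FPKM, so its level of 1.34 to 2.54 FPKM is uncertain. SEMA4C, a ligand of PLXNB2 and the class 4 gene of highest mean level, measured 24, 25.2 and 27.5 FPKM in primed and 26.6, 27.4 and 28.9 in naive H9, and 27.1, 28.5 and 23.1 and 27.1, 22.3 and 26.6 in the libraries labelled RUES2. It was called in neither, and the intervals of its log2 difference were -0.11 to 0.32 and -0.26 to 0.17.

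SEMA6B and SEMA5B, transmembrane semaphorins of the developing nervous system, fell in both comparisons. SEMA6B (chromosome 19, 4542600 to 4559771), a ligand of A-type plexins, measured 12, 11 and 13 FPKM in primed and 1.22, 1.11 and 1.15 in naive H9. The libraries labelled RUES2 gave 16.3, 14.6 and 14 and 1.12, 1.27 and 1.19. The primed mean was 10.3 and 12.5 times the naive mean (-2.59 ± 0.08 and -2.86 ± 0.08, adjusted p = 6.66e-08 and 4.99e-08). SEMA5B (chromosome 3, 122628040 to 122747452) fell from 4.07, 6.19 and 3.23 to 1.35, 1.64 and 0.619 FPKM in H9 and from 5.95, 7.93 and 5.09 to 0.793, 0.914 and 1.24 in the libraries labelled RUES2 (-1.31 and -1.87, 0.00135 and 0.000139). The states did not overlap for either gene.

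SEMA6A, a ligand of PLXNA2 and PLXNA4, had the highest mean level of all 53 genes. It measured 53.7, 40.4 and 62.4 FPKM in primed and 91.9, 97.8 and 88.5 in naive H9 and rose there (0.84 ± 0.15, adjusted p = 0.00118). Libraries with the RUES2 label gave 51.8, 57.4 and 52.6 and 76.1, 57.5 and 69.3, and the gene was not called there (0.31 ± 0.15, 0.104), but without primed H9 replicate 2, the lowest of all 12 libraries, it was (0.0333). The difference between line labels was not called (0.177). SEMA6C fell in H9 from between 3.44 and 5.22 to between 1.51 and 2.03 FPKM (-0.94, 0.00118) and was not called in the libraries labelled RUES2 (0.079). It was called lower there too with the median-ratio rescaling (0.047) or without primed RUES2 replicate 1 (0.0391). SEMA6D was called lower in the libraries labelled RUES2 alone (-0.96, 0.0202), and the call ended without primed replicate 1 (0.0792) or naive replicate 2 (0.0711). SEMA5A was called in neither. SEMA7A, a lipid-anchored semaphorin that binds plexin C1 and integrins, measured 4.81, 4.93 and 9.97 FPKM in primed and 5.2, 4.81 and 5.66 in naive H9, and 4.66, 5.25 and 5.42 and 3.49, 2.23 and 3.9 in the libraries labelled RUES2. It was called in neither (0.473 and 0.0714), although without primed H9 replicate 3, its highest library, it was called lower in the libraries labelled RUES2 (0.00978).

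**Figure D3:**
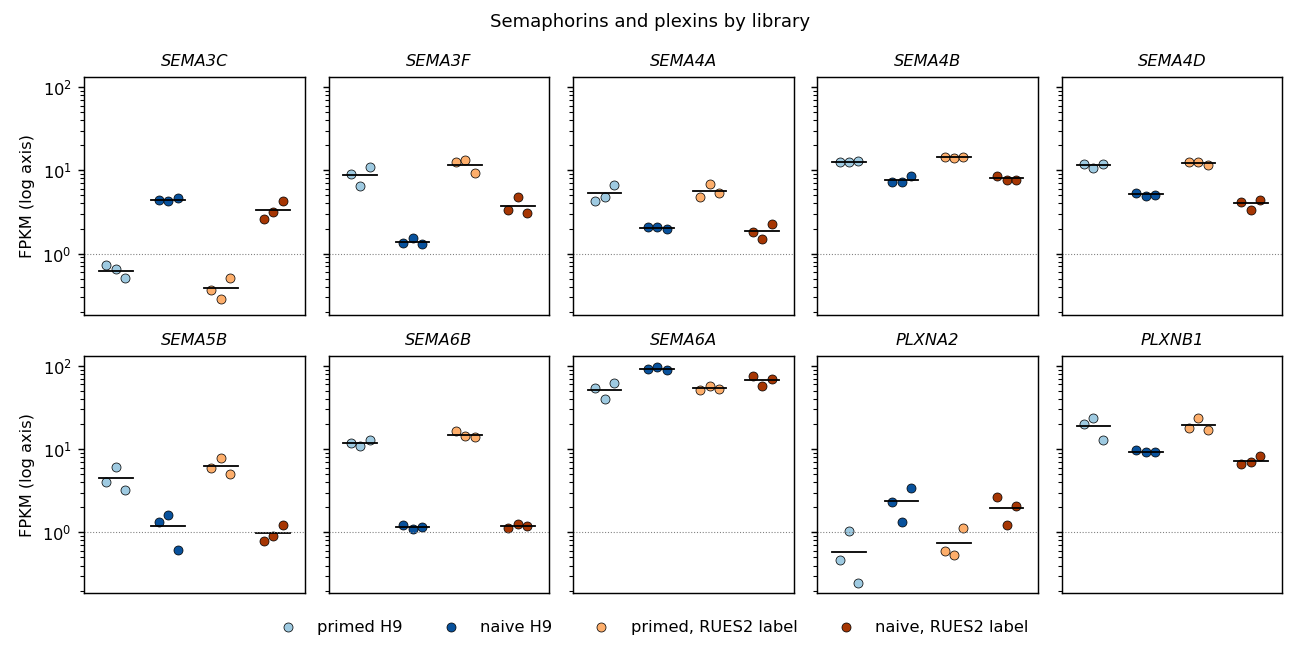
FPKM on a log axis of 8 semaphorin and 2 plexin genes, with 3 libraries per group as points, group means as black lines and a dotted line at 1 FPKM. SEMA3C and PLXNA2 rise in both line labels, 7 genes fall in both, and SEMA6A, the gene of highest level, moves from means of 52.2 to 92.7 FPKM in H9.

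Set side by side as known pairs, SEMA4D and its receptor PLXNB1 both fell, SEMA6A and PLXNA2 were both higher in naive H9, and EFNB2 rose while its receptor EPHB4 fell. SEMA3F fell in both comparisons while its binding subunit NRP2 fell in H9 and rose in the libraries labelled RUES2. Other pairs moved otherwise: SEMA6B fell and PLXNA2, an A-type plexin, rose in both comparisons. SEMA4C was called in neither while its receptor PLXNB2 fell in H9, and EFNB1 and the EphB receptor EPHB3 were both higher in naive H9. These are levels of RNA in whole colonies, and no contact or signal was measured.

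The state difference itself was compared between the line labels. It was called more positive in the libraries labelled RUES2 for 4 of the 46 genes (8.70%, beside 3.77% of all tested genes) and more negative for 1 gene (2.17%, beside 1.93%). The first 4 were EPHA3, EPHA8, NRP2 and SEMA3A, and the last was EPHB6. This comparison uses the same libraries as the state comparisons.

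EPHA3 (chromosome 3, 89156674 to 89531284), an EphA receptor of mesenchyme and retina, measured 0.526, 0.285 and 0.187 FPKM in primed H9, 0.234, 0.259 and 0.255 in naive H9 and 0.274, 0.555 and 0.323 in primed libraries labelled RUES2. In the naive libraries labelled RUES2 it measured 4.36, 7.59 and 3.51. These 3 libraries alone were above 1 FPKM, so EPHA3 passed the filter only through the group where it was high. The difference of the state effects was 2.19 ± 0.29 (adjusted p = 0.00343), and it was not tested with any 1 of these 3 libraries left out. EPHA8 (chromosome 1, 22890004 to 22930087), an EphA receptor of the midbrain, measured 2.06, 1.48 and 2.58 FPKM in primed and 0.135, 0.29 and 0.253 in naive H9. Its values under the RUES2 label were 1.4, 2.44 and 1.16 and 2.39, 7.05 and 2.51. It thus fell in H9 (-1.29 ± 0.31, adjusted p = 0.00689) and was not called in the other comparison (0.81 ± 0.31, 0.0532), where the groups overlapped. The difference was 2.10 ± 0.44 (0.0215), and its call ended without any one naive H9 library or primed RUES2 replicate 1 (0.0512 to 0.0607).

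EPHA5 and EPHA6, EphA receptors of neurons that fell under the filter, had the same pattern of levels as EPHA3. EPHA5 was at most 0.0372 FPKM in the 9 other libraries and measured 0.602, 1.29 and 0.507 in the naive libraries labelled RUES2. EPHA6 was at most 0.175 FPKM elsewhere and measured 0.972, 1.67 and 0.77 there. Tested without a filter, the difference of the state effects was 0.82 ± 0.17 for EPHA5 (adjusted p = 0.0301) and 1.05 ± 0.17 for EPHA6 (0.00886). Each reached 1 FPKM in 1 library alone, naive RUES2 replicate 2, and was described after its values were seen. These p-values thus add no independent support, and the tests without a filter were not repeated with a library left out. In all 4 genes replicate 2 was the highest of the 3 libraries. That library had the highest neural ectoderm marker sum (335 FPKM, beside 289 and 275) and the lowest fibroblast marker sum (189 beside 268 and 1048) of the 3. It also had the highest endothelial marker sum (6.31 FPKM, beside 5.21 and 4.11) and the highest pluripotent marker sum (1358, beside 1210 and 1052). Its mesendoderm (86.9, beside 144 and 104) and neural crest marker sums (14.7, beside 17.8 and 18) were the lowest of the 3. The definitive endoderm marker sum (109) lay between those of the others (231 and 106). Of the tested endothelial and endoderm markers, PECAM1, SOX17 and GATA6 had their highest group mean in the same group as these EphA genes. TEK had its lowest group mean there (1.62 FPKM), and FOXA2, CXCR4 and CER1 were highest in another group. PECAM1 measured 3.29 ± 2.15 FPKM there (SD, n = 3) and had group means of 0.205 to 0.259 elsewhere, with a difference of the state effects of 1.72 (limma adjusted p = 0.0498). The endoderm marker SOX17 measured 5.7 ± 2.34 FPKM there and had group means of 0.524 to 2.77 elsewhere, with a difference of 1.49 (limma adjusted p = 0.0303). For PECAM1 the call of that difference ended in all 9 omissions of a library that left the gene tested (0.0694 to 0.112). PECAM1 passed the filter only through the naive libraries labelled RUES2 and was not tested with any 1 of them left out. For SOX17 the call ended in 8 of 12 omissions (0.0509 to 0.0785). The part of all these markers in the result was not tested. Because some libraries labelled RUES2 went against their line label, state, line and library identity cannot be told apart in these genes.

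NRP2 (chromosome 2, 206547224 to 206662857) measured 13.3, 9.92 and 13.3 FPKM in primed and 8.69, 7.13 and 8.58 in naive H9, and 6.35, 6.36 and 7.65 and 10.9, 10.1 and 11.9 in the libraries labelled RUES2. It fell in the first (-0.52 ± 0.13, adjusted p = 0.00729) and rose in the second (0.62 ± 0.13, 0.00263), a difference of 1.14 ± 0.18 (0.00612). SEMA3A (chromosome 7, 83587659 to 83824217), a repellent that binds NRP1, measured 10.01, 7.99 and 8.53 in primed and 6.3, 6.53 and 5.31 in naive H9, and 3.4, 3.96 and 5.42 and 6.91, 7.71 and 7.33 in the libraries labelled RUES2. The groups did not overlap in either, and the difference was 1.16 ± 0.20 (0.00922). Its fall in H9 (-0.48, 0.0174) was not called without primed H9 replicate 1 (0.064) or naive H9 replicate 3 (0.0685). In both genes the 2 primed groups lay farther apart than the 2 naive groups. EPHB6 fell in both line labels and by more in the libraries labelled RUES2 (difference -0.59 ± 0.15, 0.0455), but this call ended in 10 of 12 omissions, all except that of primed H9 replicate 2 or primed RUES2 replicate 3 (0.0728 to 0.11).

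**Figure D4:**
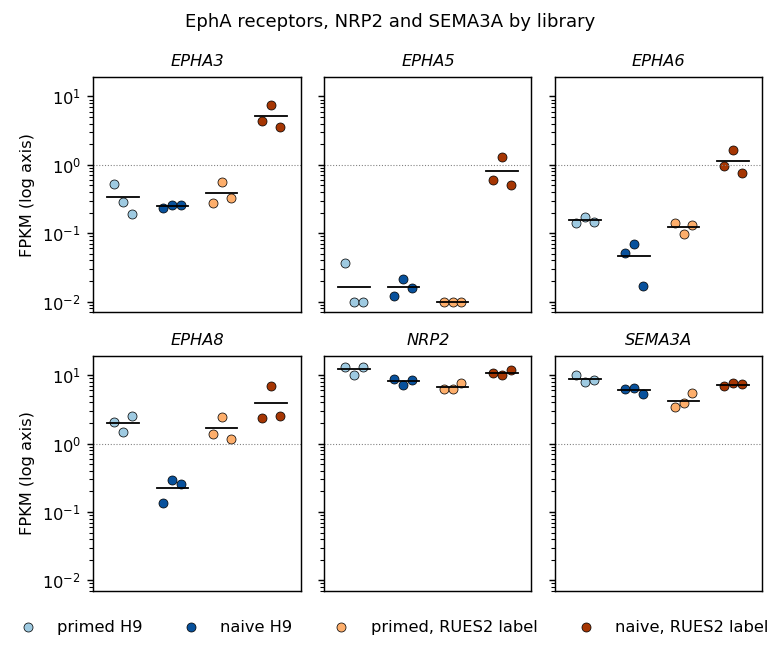
FPKM on a log axis of EPHA3, EPHA5, EPHA6, EPHA8, NRP2 and SEMA3A, with 3 libraries per group as points, group means as black lines, a dotted line at 1 FPKM and values under 0.01 drawn at 0.01. The EphA genes are highest in the naive libraries labelled RUES2, and NRP2 and SEMA3A fall from primed to naive in H9 and rise in the libraries labelled RUES2.

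Within the primed state, the libraries labelled RUES2 were higher than H9 for 1 of the 46 genes (2.17%, beside 1.34% of all tested genes) and lower for 2 (4.35%, beside 0.471%). The higher gene was EFNA1, a ligand known from endothelium, at 0.881, 1.55 and 2.73 FPKM in primed H9 and 6.45, 4.61 and 3.64 in primed libraries labelled RUES2 (1.15 ± 0.23, adjusted p = 0.0387). The lower genes were NRP2 (-0.75 ± 0.13, 0.0207) and SEMA3A (-0.92 ± 0.14, 0.0141). The groups did not overlap for any of the 3, but every one of these calls ended in some alternative. That of EFNA1 ended in 10 of 12 omissions (0.053 to 0.174) and without the naive libraries labelled RUES2 (0.0875), that of NRP2 without primed H9 replicate 1 (0.0688), without primed RUES2 replicate 1 (0.106) and without the naive libraries labelled RUES2 (0.0564), and that of SEMA3A without primed RUES2 replicate 1 (0.0617).

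Within the naive state, 8 genes were higher in the libraries labelled RUES2 (17.4%, beside 11.2% of all tested genes) and 2 were lower (4.35%, beside 4.69%). The calls of EPHA8 (1.90 ± 0.31, adjusted p = 0.00285) and SEMA3F (0.98 ± 0.19, 0.00754) held in every alternative in which they were tested. That of EPHA3 (2.24 ± 0.21, 0.000148) did as well, but EPHA3 passed the filter only through the 3 naive libraries labelled RUES2. It was not tested with any 1 of them left out, so those omissions could not end its call. EFNA1 (0.76), EFNA2 (0.89), EFNA5 (0.52), SEMA3E (0.67) and PLXNB2 (0.50) were also called higher, and EFNB3 (-0.66) and SEMA4D (-0.30) lower, with adjusted p between 0.0179 and 0.0492. Each of these 7 calls ended without at least 1 library, with adjusted p up to 0.156 for EFNA1 (without naive RUES2 replicate 2), 0.0965 for EFNA2 (without naive H9 replicate 2) and 0.116 for PLXNB2 (without naive RUES2 replicate 2). The same measure reached 0.16 for EFNB3 (without naive RUES2 replicate 2) and 0.161 for SEMA4D (without naive H9 replicate 1). It reached 0.0877 for EFNA5 (without naive H9 replicate 3) and 0.0704 for SEMA3E (without naive H9 replicate 2). EFNA1, EFNA2 and EFNA5, 3 of the 5 A-type ephrins, were thus among the higher genes, on calls that each ended in some omission.

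Several members lie near each other on hg19. EFNA4, EFNA3 and EFNA1 follow each other on chromosome 1 with gaps of 9.3 and 40.3 kb, and in H9 they were called higher, lower and not called. SEMA3F, which fell, lies 78.5 kb from SEMA3B, which was not called. EPHB6 and EPHA1 lie 519.4 kb apart on chromosome 7, and both fell in both comparisons. Of the 15 genes between them 5 were tested. FAM131B, next to the EPHA1 end, also fell, from 9.6 to 0.678 FPKM by group means in H9 and from 11 to 0.461 in the libraries labelled RUES2 (log2 difference -2.65 and -3.04). GSTK1 rose in both (0.57 and 0.49), and CASP2 was called higher in H9 (0.44, adjusted p = 0.0486), by a call that ended in 10 of 12 omissions of a library (0.054 to 0.146). KEL, between EPHB6 and GSTK1, fell in the libraries labelled RUES2 (-1.35, 0.00159) and, without primed H9 replicate 3, in H9 (0.000386). ZYX, which abuts EPHA1, was not called in H9 (-0.05, adjusted p = 0.791) and fell slightly in the libraries labelled RUES2 (-0.43, 0.0263), a call that ended without primed RUES2 replicate 2 or 3 or naive RUES2 replicate 2 (0.0742 to 0.0844). The fall was thus not shared by all tested genes of the interval. Outside it, PRSS1 (-1.98, adjusted p = 0.00124) and PRSS2 (-1.79, 0.000712) fell in the libraries labelled RUES2, from group means of 5.36 and 2.9 FPKM. Neither was called in H9 (0.0507 and 0.123). MTRNR2L6 and FAM115A, also outside, were called in neither comparison.

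**Figure D5:**
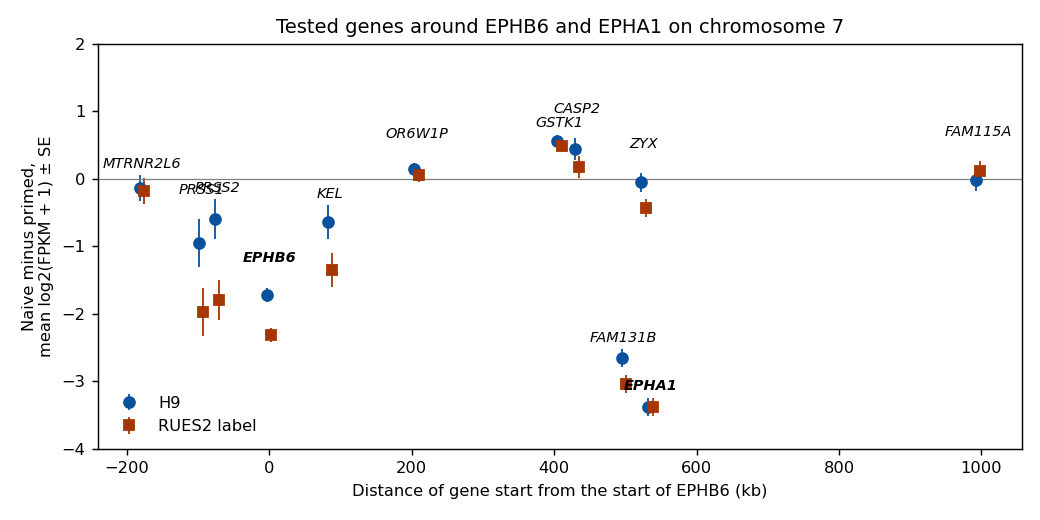
Naive minus primed mean log2(FPKM + 1), with bars of 1 SE, of the 12 tested genes around EPHB6 and EPHA1, by the distance of the gene's start from that of EPHB6 in kb, for H9 (circles) and the libraries labelled RUES2 (squares, shifted sideways for legibility). EPHA1 and FAM131B lie lowest in both line labels, from -2.65 to -3.38, while GSTK1 and CASP2 between the members lie above 0.

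RefSeq promoter windows, 250 bases before to 50 after a transcript start on GRCh38.p14, were matched by symbol for 47 of the 53 genes. Of their 74 windows, 74.3% held the GC box letters GGGCGG on either strand, beside 45% of all 35116 windows. The shares were 88.9% of 9 windows of the 6 genes higher in both state comparisons and 69.6% of 23 windows of 12 of the 13 genes lower in both. The median window had 22 CpG pairs in the windows of these genes and 14 over all windows. CTTTGAT was present in 4.05% of the genes' windows and 2.62% of all, CACGTG in 5.41% and 7.26%, and TGANTCA in 1.35% and 7.71%, each on either strand. Windows of 1 gene can overlap, and these matches are descriptions of letters.

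Genes that act downstream or beside these receptors were described as lists. Of 41 intracellular effectors and proteases 39 were tested, and 8 rose and 11 fell in H9, and 8 rose and 13 fell in the libraries labelled RUES2, beside 20.4% higher and 23.9% lower calls over all tested genes in H9 and 23.1% and 23.6% in the libraries labelled RUES2 (median log2 difference -0.15 and 0.02). VAV3 fell from 3.73 ± 0.96 to 0.0411 ± 0.018 FPKM (SD, n = 3) in H9 (log2 difference -2.16) and by 1.72 in the libraries labelled RUES2. DPYSL4, of the collapsin response mediator family (-1.52 and -1.61), and PAK1, a kinase activated by RAC1 and CDC42 (-1.40 and -1.11), fell in both as well. Of 11 co-receptors 9 were tested, and 1 rose and 3 fell in H9, and 3 rose and 3 fell in the libraries labelled RUES2, beside those same shares. ERBB2, a kinase that pairs with PLXNB1, fell from 108 ± 22.3 to 18.7 ± 1.22 FPKM in H9 and from 93.2 ± 3.95 to 19 ± 2.34 in the libraries labelled RUES2. FLT1, a VEGF receptor (-1.02 and -1.52), and CD72, a receptor of SEMA4D on lymphocytes (-1.09 and -1.28), also fell in both, the FLT1 call in H9 ending in 8 of 12 omissions of a library (0.0517 to 0.15). MET, another kinase that pairs with B-type plexins, was named after its values were seen. It rose in the libraries labelled RUES2 from 2.06 ± 0.679 to 4.84 ± 0.358 FPKM (0.95, limma adjusted p = 0.00143) and was not called in H9 (0.17, 0.47), while the difference between the line labels was not called (0.0961).

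Of 24 genes of the slit, netrin, repulsive guidance and FLRT families 16 were tested, and 7 rose and 6 fell in H9, and 5 rose and 4 fell in the libraries labelled RUES2, beside the same shares over all tested genes (20.4% and 23.9% in H9, 23.1% and 23.6% in the other comparison). The netrin receptors UNC5A (-1.62 and -1.97) and UNC5B (-1.45 and -2.11) fell in both. FLRT3, an adhesion protein that binds UNC5 receptors, rose from 1.56 ± 0.622 to 7.79 ± 1.93 FPKM in H9 and from 3.9 ± 1.83 to 8.45 ± 2.92 in the libraries labelled RUES2 (1.78 and 0.97). Its call in the libraries labelled RUES2 ended without primed replicate 1 or 3 or naive replicate 1 or 3 of that label (0.0626 to 0.105).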

How the data were processed

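Poly(A) RNA-seq of 12 libraries was analysed, 3 for each combination of line label (H9, RUES2) and state (primed, naive), as the labels give them. Per the submitters' processing notes, reads were handled with TopHat2 2.1.1 and bcl2fastq 2.17.1.14 on hg19. Neither the expression program and its annotation nor the strandedness is given in the sources used. Values are the FPKM that the authors deposited, 1 per gene and library with bounds and a status by the headers, although the design text says RPKM. Each table listed 25278 entries for 23615 symbols. For 554 symbols with several loci (none of them a guidance gene) the locus of highest mean was kept, and 2 symbols with a failed status were left out. No 2 libraries were identical. The tables hold no counts, and with their bounds read as counting error the guidance genes of 1 to 2 FPKM rested on 4.18 fragments at the least and a median of 114 per library.

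The 14428 genes that reached 1 FPKM in 3 or more libraries entered a two-sided limma test (version 3.58.1, R 4.3.3) of log2(FPKM + 1), in 1 model with a mean per group, an empirical Bayes variance trend and Benjamini-Hochberg adjustment over all of them. Data were simulated with each gene's overall mean and residual spread, the same in all groups apart from the changed genes. In the H9 comparison 78 of 100 genes changed by a log2 difference of 1 and 97 of 100 changed by 2 were called, with 11 false calls. Far fewer genes changed there than were called in the real data, so these shares need not hold for the real data. Other steps used pandas 2.3.3, numpy 2.4.6 and matplotlib 3.10.9 (Python 3.11.15). Intervals are 95% limits of the model. Alternatives were a pseudocount of 0.1 FPKM, no filter, a filter of 5 FPKM, a median-ratio rescaling, the replicate number as a block, no variance trend, each library left out and, added after the data were seen, 9 libraries without the naive ones labelled RUES2.

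The guidance genes and all lists were chosen with earlier results of these data known. Per-library values are given for 29 genes: the highest of each class, those that both state comparisons called alike, without overlap, those whose state difference differed between the line labels, and up to 5 per line-label comparison. Values of EFNA5, EPHB3, NRP1 and the other genes outside this rule were added after they were seen. Of each pathway list, up to 3 called genes with the largest mean change are named. Promoter sequences are from RefSeq (GRCh38.p14), exons from GENCODE, and coordinates of genes are 1-based on hg19 as deposited.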

Additional observations from a re-analysis of the deposited data

Results flagged for a closer look

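For 5 genes the naive-primed difference itself differed between the line labels by limma's test of the interaction, given here as the difference in the libraries labelled RUES2 minus that in H9. EPHA3 (2.19, adjusted p = 0.00343) was low in 9 libraries and higher in the 3 naive libraries labelled RUES2, through which alone it passed the filter. EPHA8 (2.10, 0.0215) fell in all 3 naive H9 libraries and not in the naive libraries labelled RUES2, and its call ended without any one naive H9 library or primed RUES2 replicate 1 (0.0512 to 0.0607). NRP2 (1.14, 0.00612) and SEMA3A (1.16, 0.00922) fell in H9 and rose in the libraries labelled RUES2, 3 against 3 libraries without overlap each time. EPHB6 (-0.59, 0.0455) fell in both and further in the libraries labelled RUES2, by a call that ended in 10 of 12 omissions of a library, all except primed H9 replicate 2 and primed RUES2 replicate 3 (0.0728 to 0.11). Since 3 libraries, none labelled H9, did not match their line label, a difference between lines and one between libraries cannot be told apart here.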

How the results depend on the processing

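No gene described here reversed a called direction in any alternative. Leaving out 1 library at a time gave 9 to 11 genes higher and 17 to 20 lower in H9, 9 to 13 higher and 14 to 17 lower in the libraries labelled RUES2, 4 to 8 higher and 12 to 13 lower in both, 3 to 5 more positive and 0 to 3 more negative differences between the labels, 0 to 2 higher and 0 to 3 lower primed line differences, and 3 to 8 higher and 0 to 5 lower naive line differences. With a filter of 5 FPKM only 26 of the guidance genes were tested, and the calls were 13 lower in H9, 6 higher and 10 lower in the libraries labelled RUES2, 2 more positive and 0 more negative differences, 0 higher in the primed and 2 higher and 1 lower in the naive line comparison. Of primed line differences, 0 were higher with a pseudocount of 0.1 FPKM, without a filter or with 9 libraries, and 2 with the rescaling or without the variance trend, and 1 was lower with 9 libraries. Without a filter 0 naive line differences were lower. Deviations of same-numbered libraries from their group means correlated at -0.05 to 0.14 over 18 pairs of libraries. Libraries of different numbers were not compared in this way, so the check cannot decide whether the numbers pair them. With the replicate block, 10 genes were higher and 20 lower in H9, and 11 and 16 in the libraries labelled RUES2, where EFNA3 (0.0637) and PLXNA2 (0.0552) lost and NRP1 (0.0438) and SEMA7A (0.0366) gained a call, while 0 differences were more negative, 0 higher in the primed and 0 lower in the naive line comparison. The causes were not tested, except that fewer genes were tested at the higher filter. The median over all genes moved by under 0.1 with the rescaling. The tables give no counts, so genes of low FPKM, such as EPHA8 in naive H9 (4.18 to 13.3 fragments implied), are the least precise, and 3 libraries per group limit all comparisons.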

Other observations

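Among the 39 tested effectors, the state difference was called more positive in the libraries labelled RUES2 for 1 gene and more negative for 2. Among the 16 tested genes of the other guidance families the counts were 1 and 1, and among the 9 tested co-receptors 0 and 0. Over all tested genes the shares were 3.77% and 1.93%. The genes below were named after their values were seen. RGMA, a ligand of neogenin in repulsive guidance, rose from 13.5 ± 1.11 to 38.7 ± 2.37 FPKM (SD, n = 3) in H9 and measured 17.5 ± 3.19 and 19.4 ± 2.7 in the libraries labelled RUES2. The difference of the state effects was -1.30 ± 0.19 (limma adjusted p = 0.00461). RND1, a small GTPase that binds plexins, measured 3.41 ± 1.19 and 2.31 ± 0.34 FPKM in primed and naive H9 and fell from 7.69 ± 0.442 to 1.5 ± 0.351 in the libraries labelled RUES2, with a difference of -1.42 ± 0.25 (adjusted p = 0.0115). Without primed H9 replicate 3, RND1 was called lower in naive H9 too (adjusted p = 0.0208). ROBO2 fell in H9 (-0.63, limma adjusted p = 0.0168) and rose in the libraries labelled RUES2 (1.38, 0.000178), with a difference of 2.01 ± 0.26 (0.00276). Its group means were 0.183 to 0.843 FPKM outside the naive libraries labelled RUES2 and 2.77 ± 0.888 FPKM in them (SD, n = 3). ROBO2 thus passed the filter only with the help of the group where it was high. The p-value of its difference therefore adds no independent support, and its fall in H9 was between group means under 1 FPKM. FARP1 also fell in H9 (-0.29) and rose in the other comparison (0.22), with a difference of 0.52 (0.0189). DPYSL3 had a difference of -0.94 (0.0287). None of these differences was tested outside the libraries that the state comparisons use.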
